A study of Homo sapiens with 12 samples.

Results

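The genes described here are those of the TRAIL system: the ligand gene TNFSF10, the death receptor genes TNFRSF10A (DR4) and TNFRSF10B (DR5), and the genes of the decoy receptors TNFRSF10D (DcR2) and TNFRSF11B (osteoprotegerin). They were chosen by name, and each had 1 array feature that named it and no other gene, so all 5 of 5 were measured among 18417 genes. The feature that named the remaining decoy receptor, TNFRSF10C, also named another gene and was not used. Transcript levels came from MDA-MB-231, a cell line of human triple-negative breast cancer, on 12 one-colour Affymetrix arrays in 4 groups of 3. The groups were cells treated to resistance (TTR) and given TRAIL at 100 ng per ml for 2 hours, TTR cells left untreated, parental cells given the same TRAIL, and parental cells left untreated. The labels do not say with what the TTR cells had been treated beforehand, whether they were 1 clone, or whether the 3 replicates were separate cultures, so p-values speak only of the spread among these arrays.

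TRAIL is a trimeric ligand of the tumour necrosis factor family. It clusters TNFRSF10A and TNFRSF10B, whose cytoplasmic death domains recruit the adaptor FADD and caspase-8 and so start apoptosis, and the same receptors can also signal to NF-kB. TNFRSF10D binds TRAIL but carries a truncated death domain, and TNFRSF11B is a secreted protein that binds both TRAIL and RANKL, the ligand of bone-resorbing cells, so both can hold TRAIL away from the death receptors.

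Levels are log2 values made by the authors with RMA, and a change is a difference of mean log2 levels with its standard error (SE) from a limma fit of all 12 arrays. A gene is called where its p-value, adjusted by Benjamini-Hochberg over all 18417 genes, is under 0.05. Levels of different genes are not compared, since each feature has its own brightness. The median over all features differed between groups: it was 4.38 to 4.40 in TTR cells with TRAIL, 4.24 to 4.30 in untreated TTR cells, 4.58 to 4.61 in parental cells with TRAIL and 4.29 to 4.31 in untreated parental cells. TRAIL thus moved the median by 0.29 in parental and by 0.11 in TTR cells, so the receptors' results that involve TRAIL are also given under median centring (each array minus its own median) and quantile normalization. In parental arrays the lower quartile over all features was 2.98 to 3.05 with TRAIL and 2.84 to 2.89 without it. The upper quartile went the other way, at 6.54 to 6.59 with TRAIL and 6.65 to 6.69 without it. Median centring does not adjust this narrower spread. Values of genes outside the 5 are as deposited. Of 8 markers of mesenchymal-like basal breast cancer lines, 7 lay above the median of all features, among them VIM (11.55) and CD44 (11.04), as did 3 of 8 luminal markers, XBP1 (9.48), KRT19 (8.06) and GATA3 (4.94). The other 5 luminal markers lay below it, among them ESR1 (3.63), PGR (2.51) and CDH1 (3.11). The sample descriptions carry an unexplained tag that differs between parental and TTR arrays, whose effect and that of the line cannot be told apart. In such bulk samples, fewer cells that express a gene and less RNA per cell cannot be told apart either.

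The promoter of TNFSF10 is shown because the list of transcription factors below includes factors described as acting through it. The sequence is that of RefSeq (GRCh38.p14), chr3:172523431-172523680, minus strand, the 250 bases before the start of the gene, 5′ to 3′. Of the 5 genes, 1 had an entry in the promoter table. Capitals mark the letters TTTC, 2 bases of any kind and TTTC, the core of the interferon-stimulated response element, and TATAAA, the TATA box.
TNFSF10 promoter: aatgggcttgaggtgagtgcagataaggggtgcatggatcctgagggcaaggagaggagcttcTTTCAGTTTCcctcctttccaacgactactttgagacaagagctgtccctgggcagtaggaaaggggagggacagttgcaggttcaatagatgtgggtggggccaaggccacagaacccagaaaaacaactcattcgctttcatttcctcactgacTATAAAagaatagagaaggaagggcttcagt
The search covered both strands, and the motifs were chosen with this sequence in view. The response element core began at position -187 and TATAAA at -31 from the start of the gene, and 3.02% and 10.7% of all 35116 promoter windows of this length held these letters. The letters TGANTCA (AP-1), GTAAACA (FOXO) and GGGCGG (GC box) had 0 matches in this window, against 6.57%, 2.98% and 42.6% of all windows with at least 1. These are matches of letters and say nothing about binding.

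Among the 5 genes, the death receptors had the largest differences between the untreated lines. TNFRSF10A had levels of 5.30, 5.06 and 5.06 in TTR cells with TRAIL, 5.27, 4.98 and 5.26 in untreated TTR cells, 6.07, 6.04 and 6.34 in parental cells with TRAIL and 6.67, 6.55 and 6.70 in untreated parental cells. Every TTR array lay below every parental array, whatever the treatment. Of all genes, 24.6% had no overlap between the lines without TRAIL and 60.2% with TRAIL. Without TRAIL, TNFRSF10A was 2.77-fold lower in TTR than in parental cells (-1.47 ± 0.11, 95% interval -1.71 to -1.23, adjusted p = 1.06e-06), and only 0.168% of all genes had a larger absolute difference. With TRAIL it was 2.01-fold lower (-1.01 ± 0.11, adjusted p = 1.5e-06), with a difference of -0.80 under median centring and -1.05 under quantile normalization. The deposited difference with TRAIL was exceeded in size by 13.05% of genes. Both differences passed in every alternative run, with adjusted p up to 5.74e-05 and 3.06e-05.

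TNFRSF10B had levels of 7.31, 7.36 and 7.03 in TTR cells with TRAIL, 7.56, 7.40 and 7.18 in untreated TTR cells, 7.84, 8.04 and 7.69 in parental cells with TRAIL and 8.40, 8.56 and 8.33 in untreated parental cells. Here too all TTR arrays lay below all parental arrays, as deposited. With array medians subtracted, untreated TTR arrays 1 and 2 (3.26 and 3.15) lay above parental TRAIL array 3 (3.11). Without TRAIL it was 2.07-fold lower in TTR than in parental cells (-1.05 ± 0.13, 95% interval -1.32 to -0.78, adjusted p = 7.95e-05), a difference exceeded in size by 0.489% of genes. With TRAIL it was 1.54-fold lower (-0.63 ± 0.13, adjusted p = 5.13e-04), or -0.42 with arrays centred on their medians and -0.88 after quantile normalization. The deposited difference with TRAIL was exceeded in size by 27.16% of genes.

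TRAIL lowered both death receptor transcripts in parental cells within 2 hours. TNFRSF10A fell by 0.49 ± 0.11 (adjusted p = 0.00149) and TNFRSF10B by 0.57 ± 0.13 (adjusted p = 9.29e-04), with no overlap between treated and untreated arrays for either, as for 62.2% of all genes. These falls were exceeded in size by 40.49% and 35.15% of genes. Centred on the array medians the changes were -0.78 and -0.86, and after quantile normalization they were -0.45 and -0.30, where TNFRSF10B no longer passed (adjusted p = 0.0506). In TTR cells neither passed: TNFRSF10A changed by -0.03 ± 0.11 (95% interval -0.27 to 0.21) and TNFRSF10B by -0.15 ± 0.13 (-0.42 to 0.12). Their values were -0.14 and -0.25 under median centring, and -0.13 and -0.16 under quantile normalization. For both, the order of group means was TTR with TRAIL, untreated TTR, parental with TRAIL and untreated parental, from low to high. As deposited, the 2 TTR groups did not differ beyond their spread (adjusted p = 0.93 for TNFRSF10A and 0.575 for TNFRSF10B), while the other neighbours in that order did. With array medians subtracted, TNFRSF10B was 3.26, 3.15 and 2.88 in untreated TTR cells and 3.27, 3.43 and 3.11 in parental cells with TRAIL. These values overlap, and that step was not tested under median centring. Between untreated TTR cells and parental cells with TRAIL, 61.3% of all genes were called.

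The TRAIL effects of the lines were also set against each other, with the parental change subtracted from the TTR change. This comparison called 37.2% of all genes, and 35.76% of genes exceeded TNFRSF10A and 38.78% TNFRSF10B in size. For TNFRSF10A this difference was 0.46 ± 0.16 (adjusted p = 0.0339), or 0.65 under median centring (adjusted p = 0.00338). The call was lost after quantile normalization (0.32, adjusted p = 0.15), with every feature of the table tested (adjusted p = 0.0514), and without any 1 of 6 arrays: parental untreated 1 (0.0671) or 3 (0.0715), parental TRAIL 1 (0.068) or 2 (0.0752), TTR untreated 2 (0.0969) and TTR TRAIL 1 (0.0959), all adjusted p. For TNFRSF10B it was 0.43 ± 0.18 (95% interval 0.05 to 0.81) and did not pass (adjusted p = 0.0735). It passed under median centring (0.61, adjusted p = 0.0125), when arrays were weighted by quality (0.46, adjusted p = 0.0371), with the replicate number as a block (adjusted p = 0.0213), and without parental TRAIL array 2 (adjusted p = 0.0373), TTR untreated array 1 (adjusted p = 0.0348) or TTR TRAIL array 3 (adjusted p = 0.0331). After quantile normalization it was 0.14 (adjusted p = 0.602).

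The membrane decoy receptor TNFRSF10D moved the other way with TRAIL. Its levels were 7.56, 7.61 and 7.37 in TTR cells with TRAIL, 7.21, 6.95 and 7.01 in untreated TTR cells, 7.78, 7.89 and 8.04 in parental cells with TRAIL and 7.44, 7.52 and 7.54 in untreated parental cells. Treated arrays were higher than untreated arrays of the same line without overlap in both lines. Of all genes, 27.5% had no overlap in TTR cells and 62.2% in parental cells, in either direction. TNFRSF10D rose 1.37-fold in TTR cells (0.46 ± 0.11, adjusted p = 0.0189) and 1.32-fold in parental cells (0.40 ± 0.11, adjusted p = 0.00383). In size, 5.21% of genes exceeded the TTR rise and 47.89% the parental rise. The 2 effects differed by 0.06 ± 0.15 (95% interval -0.26 to 0.38, adjusted p = 0.796), or by 0.24 under median centring and -0.22 under quantile normalization, neither of which passed. The parental rise depended on the scaling, at 0.11 with median centring (adjusted p = 0.38) and 0.66 after quantile normalization (adjusted p = 4.76e-05). In TTR cells the rise was 0.35 and 0.44 under these scalings (adjusted p = 0.0363 and 0.0237). The TTR call rested on 3 arrays a group and was lost without TTR untreated array 2 (0.40, adjusted p = 0.095) or 3 (0.44, 0.0684), or without TTR TRAIL array 1 (0.44, 0.0786) or 2 (0.41, 0.105).

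Between the lines TNFRSF10D was lower in TTR cells, as the death receptors were. Without TRAIL it was 1.36-fold lower (-0.44 ± 0.11, adjusted p = 0.016), a call that was lost without parental untreated array 2 (adjusted p = 0.0596) or 3 (0.0586) or TTR untreated array 2 (0.0854) or 3 (0.0568). With TRAIL it was 1.31-fold lower (-0.39 ± 0.11, adjusted p = 0.00543), or -0.18 with median centring (adjusted p = 0.158) and -0.63 after quantile normalization. TTR cells with TRAIL and untreated parental cells stood next to each other in the order of means, at 7.51 and 7.50, and did not differ beyond their spread (0.01 ± 0.11, adjusted p = 0.965), in a comparison that called 14.6% of all genes.

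The secreted decoy TNFRSF11B fell with TRAIL in parental cells. Its levels were 5.64, 5.42 and 5.66 in TTR cells with TRAIL, 5.85, 5.73 and 5.95 in untreated TTR cells, 5.48, 5.39 and 5.22 in parental cells with TRAIL and 6.09, 6.21 and 6.64 in untreated parental cells. The untreated parental arrays were the highest and did not overlap any other group. Of all genes, 62.2% had no overlap for TRAIL in parental cells, 27.5% for TRAIL in TTR cells and 24.6% between the untreated lines. The fall in parental cells was 1.93-fold (-0.95 ± 0.13, adjusted p = 1.17e-05), against -0.27 ± 0.13 in TTR cells (adjusted p = 0.274), where the 2 groups also did not overlap. In size, 18.85% of genes exceeded the parental fall and 19.38% the TTR change. Under median centring the changes were -0.37 in TTR cells and -1.24 in parental cells, and under quantile normalization they were -0.36 in TTR cells and -1.07 in parental cells. The effects differed by 0.68 ± 0.19 (95% interval 0.28 to 1.08, adjusted p = 0.00925), or by 0.87 under median centring and 0.72 under quantile normalization, and this passed in all 19 alternatives run, with adjusted p up to 0.0272. The deposited difference of effects was exceeded in size by 22.11% of genes, in a comparison that called 37.2% of all genes.

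Without TRAIL, TNFRSF11B was 1.39-fold lower in TTR than in parental cells (-0.47 ± 0.13, adjusted p = 0.0419), close to the threshold. It no longer passed after quantile normalization (adjusted p = 0.0766), with every feature tested (0.108), with only these groups in the fit (0.0777), or without parental untreated array 2 (0.0682) or 3 (-0.31, adjusted p = 0.193) or TTR untreated array 1 (0.0755), 2 (0.169) or 3 (0.0557). With TRAIL the lines did not differ by the test (0.21 ± 0.13, 95% interval -0.07 to 0.49, adjusted p = 0.199), except with median centring (0.41, adjusted p = 0.0138). Under quantile normalization the difference was 0.29 (adjusted p = 0.0992). From low to high its means ran from parental with TRAIL through TTR with TRAIL and untreated TTR to untreated parental cells, and no neighbours among the first 3 of these groups differed beyond their spread.

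The ligand transcript TNFSF10 did not differ between the lines by the test. Its levels were 5.43, 4.74 and 5.15 in TTR cells with TRAIL, 5.89, 5.13 and 5.60 in untreated TTR cells, 5.24, 5.32 and 4.98 in parental cells with TRAIL and 5.38, 5.30 and 5.67 in untreated parental cells. The 4 groups overlapped, and the TTR arrays had the wider spread (SD 0.35 with TRAIL and 0.38 without, against 0.18 and 0.20 in parental cells). TTR minus parental cells was 0.09 ± 0.19 without TRAIL (95% interval -0.31 to 0.49, adjusted p = 0.873) and -0.07 ± 0.19 with it (-0.47 to 0.32, adjusted p = 0.755). With TRAIL it was at -0.44 ± 0.19 in TTR cells (adjusted p = 0.19) and -0.27 ± 0.19 in parental cells (adjusted p = 0.229). In TTR cells the treated array lay below the untreated array of the same replicate number for all 3 numbers, and TNFSF10 passed in a blocked fit of these 6 arrays by replicate number (adjusted p = 0.0101), as TNFRSF10D did (adjusted p = 0.0149). Blocked over all 12 arrays TNFSF10 did not pass (adjusted p = 0.107). Under median centring and quantile normalization the TTR change was -0.54 and -0.53 and did not pass. In parental cells it passed with median centring (-0.56, adjusted p = 0.0123) and after quantile normalization (-0.48, adjusted p = 0.0348).

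**Figure D1:**
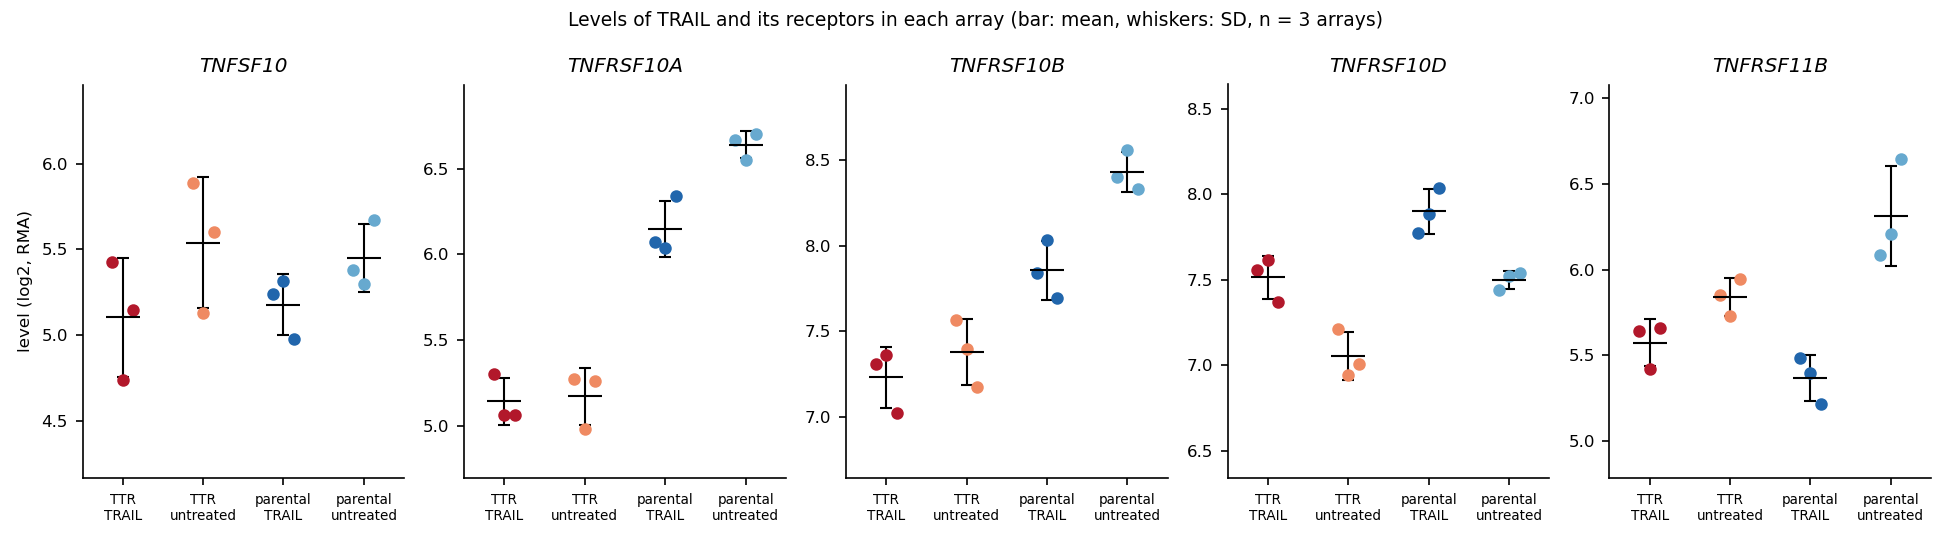
Each panel shows 1 gene, with its log2 level on the vertical axis (all panels span the same range) and the 4 groups along the horizontal axis. Points are single arrays, the bar is the mean and whiskers are the SD of 3 arrays. As deposited, all 6 TTR arrays lie below all 6 parental arrays for TNFRSF10A and TNFRSF10B. With array medians subtracted this holds for TNFRSF10A and not for TNFRSF10B.

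Counted over the members, 4 of 5 were called lower in TTR than in parental cells without TRAIL and 0 higher. Of all genes, 7.11% were called in that comparison, 3.47% lower and 3.64% higher. In TTR cells 1 of 5 changed with TRAIL, upward, against 5.82% of all genes called and 3.27% called higher. That share is unsteady: 1072 genes were called as reported, 2670 in the blocked fit of these 6 arrays, where 2 members passed (TNFRSF10D higher and TNFSF10 lower), and 379 without TTR TRAIL array 2, where 0 members passed by limma. In the other comparisons much of the transcriptome was called, and the members' counts stand near that share or cannot be read against it. TRAIL in parental cells changed 4 of 5 (1 higher and 3 lower), against 58.8% of all genes. Under median centring the 4 were 0 higher and 4 lower, TNFSF10 passing in place of TNFRSF10D. After quantile normalization TNFSF10 passed in place of TNFRSF10B. With TRAIL, TTR cells were lower than parental cells for 3 of 5, against 54.4% of all genes called, 26.4% lower and 28% higher. Under median centring 2 were lower and 1 higher, TNFRSF11B passing in place of TNFRSF10D. The difference of the TRAIL effects passed for 2 of 5, both above 0, against 37.2% of all genes called, 22.9% above 0 and 14.3% below it.

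The distance between another receptor and TNFRSF10D within an array does not depend on how arrays are centred, and its change, chosen after the values were seen, is given with no test. The distance can still depend on the spread of an array's values, as under quantile normalization, and is given as deposited only. Without TRAIL, TNFRSF10A minus TNFRSF10D was lower in TTR than in parental cells by 1.02 (SD of the distance 0.12 and 0.10, n = 3 each), and TNFRSF10B minus TNFRSF10D by 0.61 (SD 0.14 and 0.12). TRAIL changed the first distance by -0.49 in TTR cells and -0.89 in parental cells, and the second by -0.61 in TTR cells and -0.97 in parental cells. TNFRSF11B minus TNFRSF10D, a distance between the 2 decoys, changed with TRAIL by -0.73 in TTR cells and -1.35 in parental cells. In TTR cells TNFRSF10D was the only 1 of these 4 receptors that passed with TRAIL. Between the lines with TRAIL, TNFRSF10B minus TNFRSF10D was at -0.24, with overlap between TTR and parental arrays. The receptors are close relatives in sequence, and cross-hybridisation between their features was not tested.

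**Figure D2:**
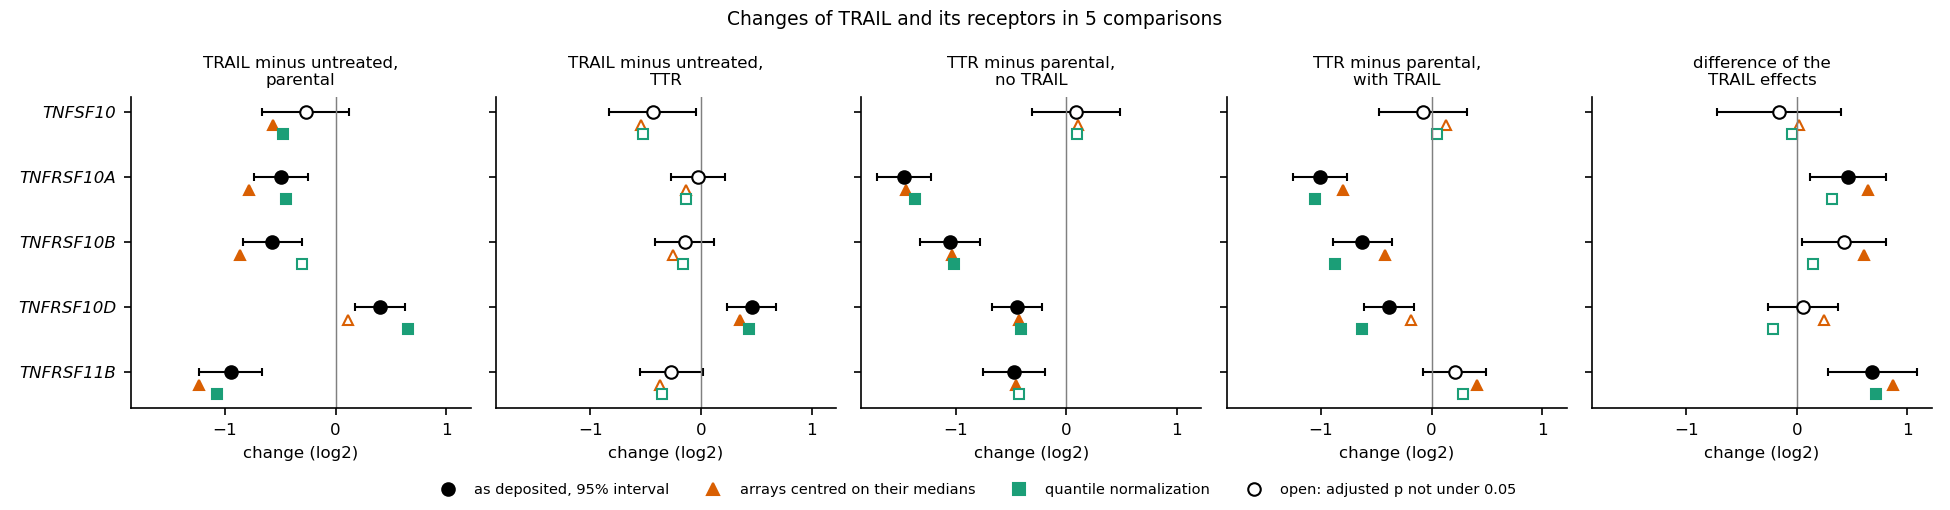
Each panel is 1 comparison, with the log2 change on the horizontal axis and the 5 genes down the page. Black circles with 95% intervals are the deposited values, triangles the median-centred and squares the quantile-normalized values, and open symbols did not pass; without TRAIL the 3 scalings lie close together for every gene, while with TRAIL they spread, as for TNFRSF10D in parental cells at 0.11, 0.40 and 0.66.

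For each member, the genes with the most similar pattern over the 12 arrays were found by the root mean square of the difference between their deviations from their own means, divided by the member's SD over the arrays, so that 0 is an identical pattern. Nearest to TNFRSF10A were the trefoil peptide gene TFF3 (0.27) and ARRB1, which encodes a beta-arrestin (0.29), against a median of 0.99 over all genes. TFF3 averaged 4.22 in TTR cells with TRAIL, 4.29 in untreated TTR cells, 5.20 in parental cells with TRAIL and 5.61 in untreated parental cells. Nearest to TNFRSF10B were the connexin gene GJB2 (0.36) and the zinc finger gene ZNF239 (0.37), and nearest to TNFRSF10D were ZC3H8 (0.24) and PAXBP1 (0.31). TNFRSF11B was most like TOR1B (0.33) and NIP7 (0.34), and TNFSF10 had no gene nearer than PPARGC1A (0.55), followed by SIGLEC14 (0.61). SIGLEC14 had group means of 3.25 to 3.45, below the array medians, where levels can be background. Within the 5, TNFRSF10A and TNFRSF10B were each other's nearest (0.42 and 0.57), and TNFRSF10D had none nearer than 1.45. These are descriptions of pattern over 12 arrays of 4 groups.

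Most measured genes of the signalling complex and of execution fell in parental cells with TRAIL. Between the untreated lines 0 of 9 passed, near the share of 7.11% of all genes called there. The list holds 13 genes, of which 9 were measured here. With TRAIL in parental cells 7 of 9 were called lower and 0 higher (median -0.60, against 0.05 over all genes and 29.9% of genes called lower). BID, which links caspase-8 to mitochondria, fell by 1.36 ± 0.12, DIABLO, which frees caspases from their inhibitors, by 0.93 ± 0.11, and PEA15, a death effector domain protein that can block the complex, by 0.70 ± 0.10. In TTR cells 1 of 9 passed, BID (-0.54 ± 0.12, adjusted p = 0.0135), with 2.55% of genes called lower. Without TRAIL 0 of 9 differed between TTR and parental cells by limma, with CFLAR, the decoy of caspase-8, at 0.26 ± 0.09 (adjusted p = 0.0853) and CASP8 at -0.30 ± 0.10 (adjusted p = 0.106), among 3 of 9 at an unadjusted p under 0.05.

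Among the other death receptors, their ligands and the RANK axis, no gene passed between the untreated lines, where 7.11% of all genes were called. Of 10 measured genes of this list, 0 were called between untreated TTR and parental cells by limma, a count near that share, and 0 had an unadjusted p under 0.05. The nearest were TNFSF15, the ligand of TNFRSF25, at -0.17 ± 0.13 and TNFRSF11A, the receptor RANK, at 0.18 ± 0.16 (adjusted p = 0.535 and 0.632). TNFSF15 had means of 2.61 in untreated TTR and 2.79 in untreated parental cells, below the array medians. In parental cells TRAIL lowered the death receptor TNFRSF21 (-1.04 ± 0.10) and raised TNFRSF25 (0.63 ± 0.09) and the cytokine TNF (0.88 ± 0.18), 4 of 10 being higher and 2 lower, against 28.9% and 29.9% of all genes. TNF had parental means of 3.55 untreated and 4.43 with TRAIL, below the array medians, where levels can be background. So had FASLG (3.00 and 3.36) and TNFSF11 (3.10 and 3.46), also called higher and named after their values were seen. In TTR cells, where 5.82% of all genes were called, 0 of 10 passed by limma, 1 having an unadjusted p under 0.05. TNF stood at 0.61 ± 0.18 (limma adjusted p = 0.0599) and TNFRSF25 at 0.16 ± 0.09 (limma adjusted p = 0.31).

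Transcription factors described as acting on these genes included members that rose with TRAIL in both lines. Of 12 measured, 5 rose and 0 fell in TTR cells (median 0.37), where 3.27% of all genes were called higher and 2.55% lower. In parental cells 9 rose and 3 fell (median 1.33), where 28.9% of all genes were called higher and 29.9% lower. FOS and JUN, the AP-1 subunits, rose by 4.53 ± 0.14 and 2.48 ± 0.11 in TTR cells, and IRF1, an interferon regulatory factor, by 1.43 ± 0.10. In parental cells the 3 rose by 6.17 ± 0.14, 4.20 ± 0.11 and 2.22 ± 0.10. Between the untreated lines 1 of 12 passed, MYC, at 0.80 ± 0.10 higher in TTR cells (limma adjusted p = 1.68e-04), against 7.11% of all genes called.

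Of 15 genes of receptor delivery to the surface, glycosylation and uptake, 9 fell and 4 rose in parental cells with TRAIL (median -0.94), against 29.9% of all genes lower and 28.9% higher. The clathrin heavy chain CLTC fell by 1.73 ± 0.10, SRP72 of the signal recognition particle by 1.43 ± 0.09, and MARCHF8, a ubiquitin ligase described as acting on TNFRSF10A, by 1.47 ± 0.13. In TTR cells, where 5.82% of all genes were called, 0 of 15 passed by limma, 4 having an unadjusted p under 0.05, with SRP72 at -0.27 ± 0.09 (adjusted p = 0.107) and ARAP1, a trafficking protein, at 0.31 ± 0.12 (adjusted p = 0.149). Between the untreated lines C1GALT1, which extends O-glycans, was higher in TTR cells (0.70 ± 0.15, adjusted p = 0.00838) and GALNT3, which starts them, was lower (-0.44 ± 0.12, adjusted p = 0.0368). That comparison called 7.11% of all genes.

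**Figure D3:**
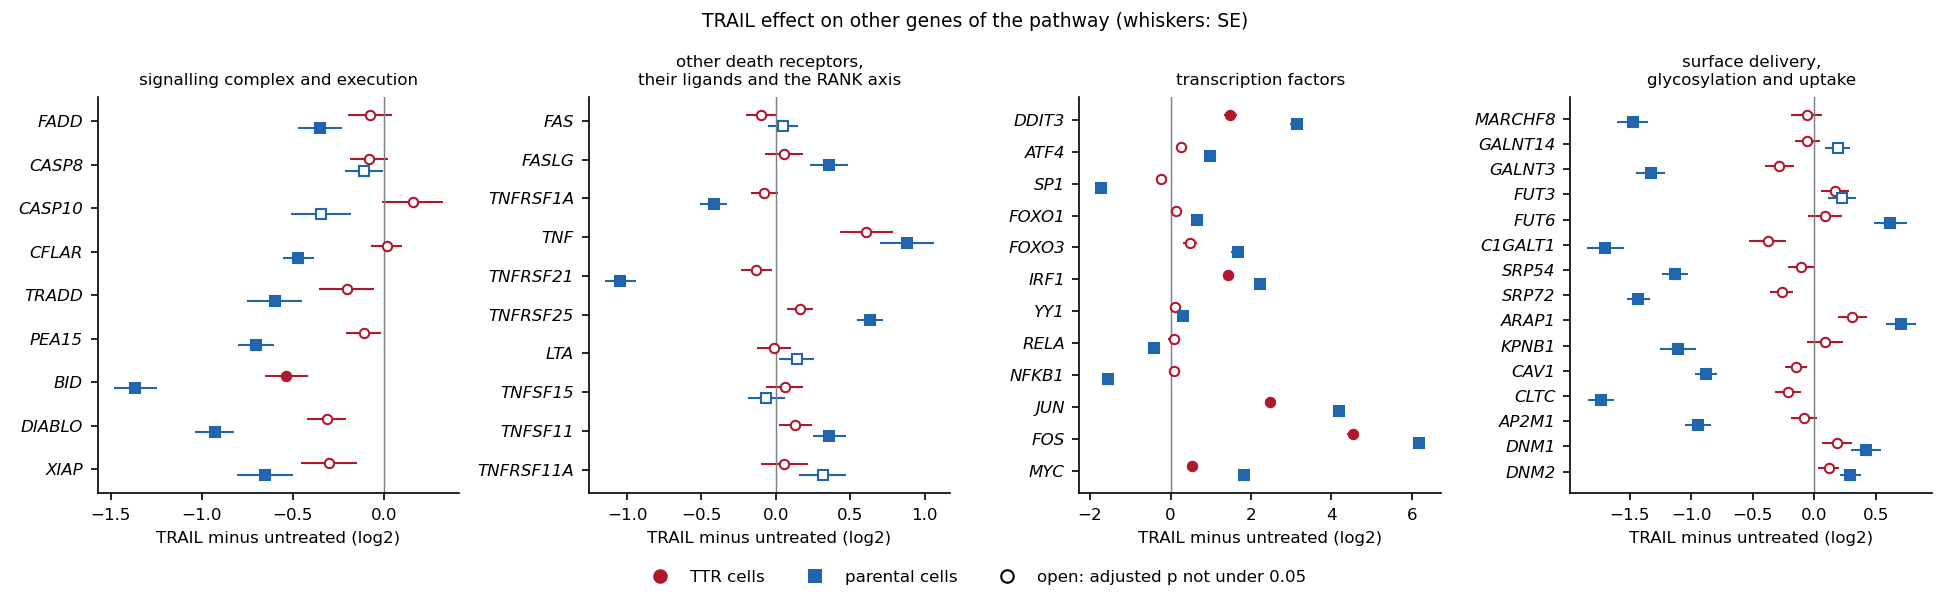
Each panel is 1 list of genes, with TRAIL minus untreated on the log2 scale along the horizontal axis, circles for TTR and squares for parental cells, and the SE as whiskers. Open symbols did not pass; in the surface list all 15 TTR values are open, and CLTC stands at -1.73 in parental cells.

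TNFRSF10A, TNFRSF10B and TNFRSF10D lie close together on chromosome 8, and several genes around them were lower in TTR cells as well. Of the 10 nearest tested protein-coding genes, 5 on each side in the RefSeq gene order, 6 were called lower in TTR than in parental cells without TRAIL and 0 higher, against 3.47% of all genes lower. CCAR2, a regulator of the deacetylase SIRT1, was at -0.99 ± 0.13 (adjusted p = 1.73e-04), with means of 6.28 in TTR cells and 7.27 in parental cells. CHMP7, an ESCRT-III component, was at -0.69 ± 0.12 and SLC25A37, a mitochondrial iron carrier, at -0.66 ± 0.11. BIN3 (-0.54), LOXL2 (-0.54) and RHOBTB2 (-0.44), named after their values were seen, were the others. The 4 that did not pass stood between -0.34 and -0.05. The count was 4 to 7 of 10 in the 16 alternatives, with 0 higher in each. Of these 10 genes TRAIL changed 1 in TTR cells (EGR3, an immediate-early factor, 0.56 ± 0.13, adjusted p = 0.0252) and 3 upward and 4 downward in parental cells, against 5.82% of all genes called in TTR cells and 58.8% in parental cells. Beside TNFRSF11B, elsewhere on the same chromosome, 0 of 10 neighbours were lower and 2 were higher (AARD, 0.68 ± 0.12, and SAMD12, 0.56 ± 0.15), against 3.47% and 3.64% of all genes. Beside TNFSF10 on chromosome 3, 0 of 10 were called by limma, against 7.11% of all genes, and 1 had an unadjusted p under 0.05. NCEH1 stood at 0.40 ± 0.17 (limma adjusted p = 0.216) and NAALADL2 at 0.36 ± 0.18 (limma adjusted p = 0.296). The group means of NAALADL2 lay below the array medians, where levels can be background.

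Lower levels were also seen over a longer stretch of chromosome 8 that holds the receptor cluster. The tested protein-coding genes of this chromosome were taken in order in blocks of 20, with the 4 receptor genes left out. Both the blocks and the cut after the first 8 were chosen after the values were seen. The shares on either side of the cut therefore describe the values and test nothing. The neighbours of the cluster given above lie in the first 8 blocks and are counted again. In the first 8 blocks, which begin at the end of the short arm and hold the cluster in the fifth, 33 of 157 genes (21.0%) were lower in TTR than in parental cells without TRAIL and 2 (1.27%) were higher. Each of the 8 held 2 to 6 lower genes. In the later 22 blocks 13 of 430 genes (3.02%) were lower and 29 (6.74%) higher, with 0 to 2 lower genes a block. Over whole chromosomes, 7.84% of genes of chromosome 8 were lower, against 1.64% to 5.42% for the other 22 chromosomes with at least 100 tested genes. TNFRSF10A, TNFRSF10B and TNFRSF10D (-0.44) all stood below the median of the first 8 blocks (-0.11), as do many other genes of these blocks. The cluster held 3 of 3 called genes. With TRAIL the same blocks had 31.8% of genes lower and 22.9% higher, against 25.6% and 36.5% in the later blocks. DNA copy number was not measured here, and the part of this stretch in the receptor levels was not tested.

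**Figure D4:**
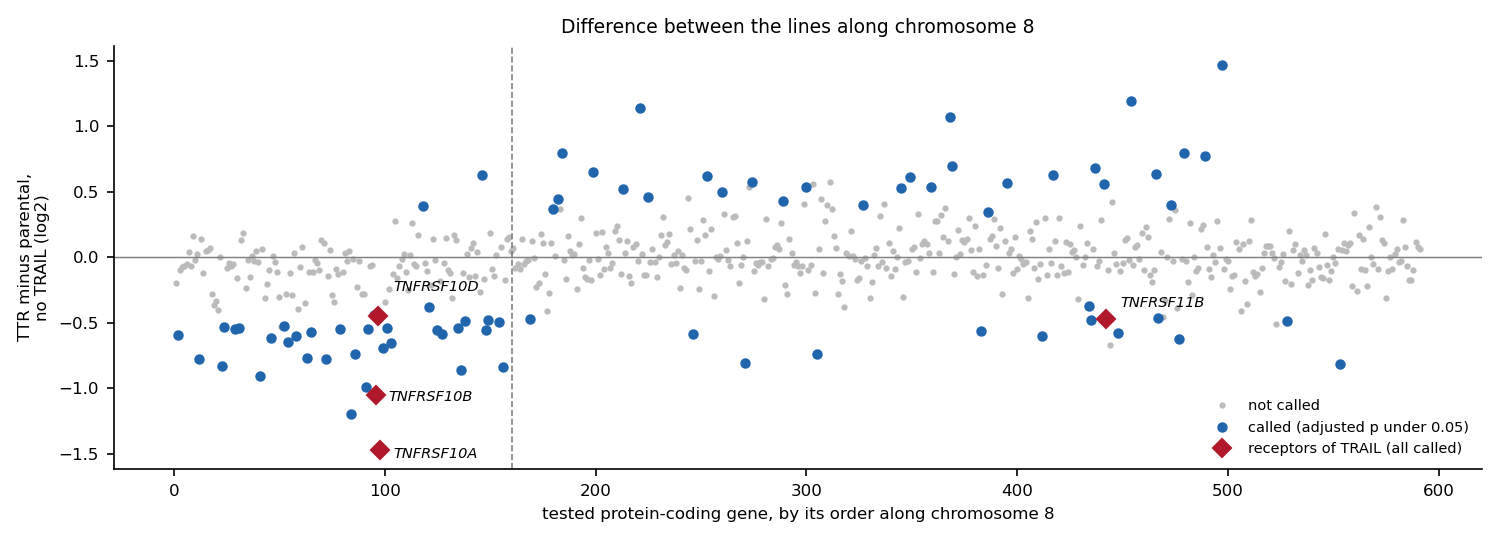
Each point is a tested protein-coding gene in its order along chromosome 8, with the TTR minus parental difference without TRAIL on the vertical axis (log2). Filled circles were called, diamonds are the receptors, and the dashed line ends the first 8 blocks of 20 genes, to the left of which 33 called genes other than the receptors lie below 0 and 2 above. The place of the line was chosen after the values were seen.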

How the data were processed

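The authors' deposited values are log2 expression levels, from RMA and Affymetrix Power Tools per the submitters' processing notes. Versions, settings and the genome build: not given in the sources used here. Of 33252 features, 19460 named 1 gene in the platform annotation, and the highest-mean feature was kept for each of 18417 genes. No detection measure was used, so low levels can be background, and the number of arrays limits the precision.

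All 12 arrays were fitted in R 4.3.3 by limma 3.58.1 (lmFit, then eBayes, 1 mean per group, two-sided, 8 residual degrees of freedom), after a test on simulated data. Exact permutation of 3 against 3 arrays cannot go below 0.1 and was not used. Named genes were the members, up to 3 called genes of smallest p (otherwise 2 as values) per list and comparison, and 2 similar genes per member. The members and lists were chosen with earlier results of these data known. Figures used matplotlib 3.10.9.

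Replicate numbers were taken to pair arrays where all 3 correlations of deviations from group means were over 0.1. This held for TRAIL in TTR cells (0.146 to 0.395 in 3 pairs), and not for the other comparisons, where 1 or more pairs were under 0.1. For TRAIL in parental cells the pairs of like number (0.056 to 0.107) still lay above those of unlike number (-0.097 to 0.032). The sample descriptions also carry an unexplained tag shared by replicate number.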

Additional observations from a re-analysis of the deposited data

Results flagged for a closer look

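For TNFRSF10A the TRAIL effect in TTR cells minus that in parental cells was 0.463 on the log2 scale, so the effects of the lines differed by the test of their difference (limma adjusted p = 0.0339). It passed in 11 of 19 alternatives, and was lost after quantile normalization (adjusted p = 0.15), with every feature tested (0.0514) and without each of 6 of the 12 arrays (0.0671 to 0.0969). The change was -0.03 in TTR cells and -0.49 in parental cells. For TNFRSF11B the same difference was 0.681 (limma adjusted p = 0.00925), with changes of -0.27 in TTR cells and -0.95 in parental cells. This comparison called 37.2% of all genes, and 35.76% of genes exceeded TNFRSF10A and 22.11% TNFRSF11B in size. The median over all features moved with TRAIL as well, by 0.11 in TTR cells and 0.29 in parental cells, and its part in these differences was not tested beyond the scalings given.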

How the results depend on the processing

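The count of members called stayed within 1.5 times under every alternative for TRAIL in parental cells (4 in each, with 0 higher and 4 lower under median centring in place of 1 and 3) and for TTR against parental cells with TRAIL (3 in each, with 1 higher and 2 lower under median centring in place of 0 and 3). For TRAIL in parental cells the members behind the count also changed after quantile normalization, with TNFSF10 in place of TNFRSF10B. For TRAIL in TTR cells the count was 1, with 2 under the replicate block with only the groups compared and 0 to 1 with 1 array left out. The genes called among all tested there numbered 1072 as reported, 2391 with median centring, 3199 with array weights, 2670 in that blocked fit, 1709 without the parental TRAIL arrays and 379 to 1443 with 1 array left out. For TTR against parental cells without TRAIL it was 4, with 2 to 4 with 1 array left out, and the genes called among all tested numbered 1310, with 2386 under array weights and 782 to 1316 with 1 array left out. For the difference of the TRAIL effects it was 2, with 1 after quantile normalization and with every feature tested, 3 with median centring, with array weights and with the replicate block over all arrays, and 1 to 3 with 1 array left out. Signs turned only for values that did not pass as reported or under that alternative. For TNFRSF10A with TRAIL in TTR cells the change was 0.0726 with array weights and -0.12 to 0.0209 with 1 array left out. For TNFSF10 between the untreated lines it was -0.0935 with array weights and -0.0849 to 0.30 with 1 array left out, and between the lines with TRAIL 0.13 with median centring, 0.0509 after quantile normalization and -0.24 to 0.11 with 1 array left out. Its difference of TRAIL effects was 0.0190 with median centring, 0.0284 with array weights and -0.37 to 0.0184 with 1 array left out. That of TNFRSF10D was -0.22 after quantile normalization and -0.0028 to 0.14 with 1 array left out. The cause of these changes was not tested. The replicate block changed no other call of a member. The lower genes of the first 8 blocks of chromosome 8 numbered 24 to 43 in 16 alternatives chosen after the values were seen.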
